A study of Mus musculus with 10 samples.

Results

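Activated_1 is 1 of 8 fine states into which the authors' annotation divides the macrophages of the mouse hippocampus. Its members were taken as the cells of class Macrophage with the fine macrophage state Activated_1. They number 646 of 2886 macrophages with a state (22.4%), and of 68914 annotated cells they make up 0.937%. Under the coarse macrophage states they belong to one named Activated, together with Activated_2 and Activated_3. All 646 cells form macrophage cluster 3, and that cluster holds no other state.

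Macrophages of the brain differ in origin. Resident macrophages sit at the borders, in the meninges, around vessels and in the choroid plexus, and many of them are long-lived. Monocytes of the blood enter injured or inflamed tissue and turn into macrophages there. Ccr2, the receptor by which monocytes follow the chemokine Ccl2, and Ly6c2, a surface protein of inflammatory monocytes, are usual markers of such recent arrivals. Lyz2, a lysozyme, marks myeloid cells more widely. The table used here holds cell names and map positions and no gene values, so these 3 markers could not be checked. The state is therefore called by the authors' name only, and neither its origin nor its gene expression is described.

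The cells came from both hippocampi of male wild-type C57BL/6 mice aged 11 weeks, perfused with saline 3 days after a hippocampal injection on each side. The injected solution was vehicle in 4 mice. In 3 mice it was neurofilament light chain at full length (FL-NfL) and in 3 the coiled-coil form (CC-NfL), both at 1 mg/ml, and each mouse gave 1 droplet single-cell library. Neurofilament light chain is a filament protein of axons that is released when neurons are damaged, and the study asked what brain cells do when it is added to the tissue. The design has neither uninjected mice nor a different protein as a control, so effects of NfL and of any injected protein cannot be told apart. Live cells were sorted after enzymatic dissociation, so each share is a share of the cells that survived it.

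Libraries held 3150 to 14141 annotated cells, and 52 to 819 macrophages with a state. The labels name batches b1 (6 libraries) and b2 (4 libraries), and every group has libraries in both. Condition and batch in the table matched the labels in every annotated cell. Across libraries, 1414 barcodes occurred more than once, among them those of 6 Activated_1 cells. Of the 6 matching barcodes in other libraries 3 were annotated, and none of those 3 was a macrophage. No cell carried both a macrophage and a microglial state, although the microglial annotation also uses the name Activated_1.

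Activated_1 macrophages were close to absent after vehicle and present in every NfL library. The vehicle libraries 1 to 4 held 0, 6, 2 and 3 such cells. FL-NfL libraries 1 to 3 held 63, 21 and 197, and CC-NfL libraries 1 to 3 held 10, 43 and 301. Cells were spread unevenly over the libraries: FL-NfL library 3 held 70.1% of the FL-NfL cells and CC-NfL library 3 held 85.0% of the CC-NfL cells. Both are b2 libraries with more annotated cells than any other library (11329 and 14141), so percentages with equal weight per library are used below. In these percentages too they were the highest of their groups.

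As a share of annotated cells, Activated_1 rose after both proteins. Vehicle libraries 1 to 4 lay at 0%, 0.182%, 0.0205% and 0.0341%. FL-NfL libraries 1 to 3 lay at 1.49%, 0.667% and 1.74%, and CC-NfL libraries at 0.231%, 0.714% and 2.13%. All 6 NfL libraries were above every vehicle library. Groups that did not overlap, in either direction, were found for 4 of the 6 states tested below (66.7%). This held for each protein and for both together. The gap was narrow at one point, since the exact 95% intervals of CC-NfL library 1 (0.111% to 0.425%) and vehicle library 2 (0.0670% to 0.397%) overlapped. For vehicle library 1, with 0 of 3874 cells, the exact interval reaches 0.0952%, and the limit of 3 cells that a count of 0 allows is 0.0774%. These intervals and limits cover counting error only.

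The mean share of annotated cells was 0.0592% ± 0.0833 in the vehicle group (SD, n = 4). It was 1.30% ± 0.562 with FL-NfL and 1.02% ± 0.986 with CC-NfL (SD, n = 3 each). These are 21.9 and 17.3 times the vehicle mean. For the test, log2 odds per library were fitted in limma with group and batch, and p-values were adjusted over the 6 states that averaged 10 cells or more in a library. The log2 odds ratio to vehicle was 5.04 for FL-NfL (SE 1.01, adjusted p = 0.00112) and 4.28 for CC-NfL (SE 1.01, adjusted p = 0.00433). In each of these contrasts limma called 4 of 6 states (66.7%), all of them higher. The average of 10 cells was taken over all 10 libraries. The 4 states called, Activated_1, Activated_2, Activated_3 and MHC2_high_2, held 11, 7, 21 and 18 cells in the 4 vehicle libraries together. They passed this filter only through their NfL libraries, so 66.7% does not show how common a rise was among macrophage states. Both contrasts use the same vehicle libraries. Both proteins together gave a log2 odds ratio of 4.66 (SE 0.86, adjusted p = 0.000721), again with 66.7% of states called.

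The size of this effect rests on few vehicle cells. Without vehicle library 2, which held 6 of the 11 vehicle cells, the vehicle mean was 0.0182% and the log2 odds ratios were 6.20 and 5.44. Without CC-NfL library 3 the CC-NfL mean was 0.472%. In batch b1 the means were 0.0912% for vehicle, 1.08% for FL-NfL and 0.472% for CC-NfL, from 2 libraries each. In b2 they were 0.0273% from 2 vehicle libraries, and 1.74% and 2.13% from 1 library of each protein. In b1 alone the CC-NfL contrast did not pass (log2 odds ratio 3.06, adjusted p = 0.0840).

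An exact two-sided permutation test of these percentages over libraries gave p = 0.0286 for each protein against vehicle, the smallest that 4 against 3 libraries allow. For both proteins together it was 0.0238. Over the 12 comparisons tested in this way these values became 0.0686 each after Benjamini-Hochberg adjustment. With exchange kept within batch, the exact permutation p was 0.0556 for each protein and for both together, and 0.111 after adjustment. For each protein 0.0556 is the smallest value that the 18 splits within batch allow, so that test could not pass 0.05. For both together the smallest possible value was 0.0111.

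**Figure D1:**
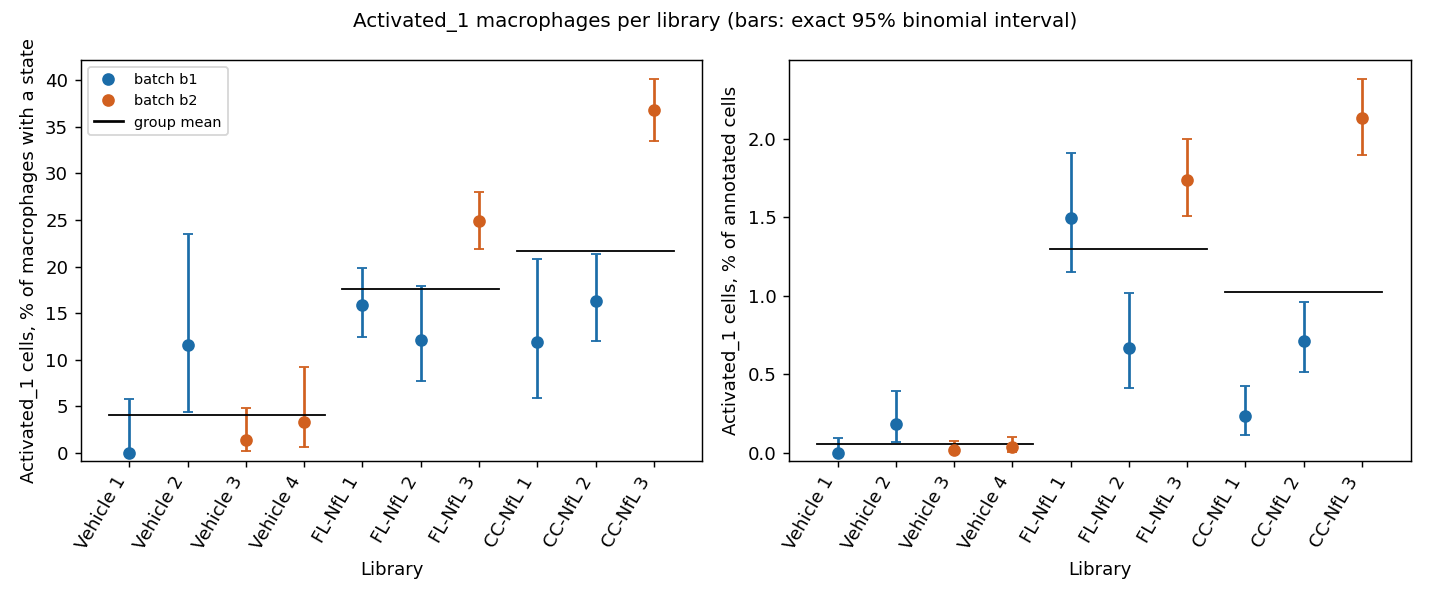
Percentage of Activated_1 cells among macrophages with a state (left) and among annotated cells (right) in each of the 10 libraries, coloured by batch, with exact 95% binomial intervals as bars and group means as lines. All NfL libraries lie above all vehicle libraries in both panels, with vehicle library 2 at 11.5% of macrophages just under CC-NfL library 1 at 11.9%. On each scale, NfL and vehicle libraries did not overlap, in either direction, for 4 of 6 states tested (66.7%).

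Among macrophages themselves the state also took a larger share after both proteins. Vehicle libraries 1 to 4 had 0%, 11.5%, 1.34% and 3.26% of their macrophages in Activated_1. FL-NfL libraries had 15.8%, 12.1% and 24.8%, and CC-NfL libraries 11.9%, 16.3% and 36.8%. The groups did not overlap, as was true in either direction of 5 of 6 states (83.3%) for FL-NfL and 4 of 6 (66.7%) for CC-NfL. Vehicle library 2 came within 1 percentage point of the lowest library of each protein, on 52 macrophages, and its interval (4.35% to 23.4%) covers all 4 NfL libraries of b1.

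The log2 odds ratio among macrophages was 2.92 for FL-NfL (SE 0.95, adjusted p = 0.0216) and 3.21 for CC-NfL (SE 0.95, adjusted p = 0.0136), in limma. For both proteins together it was 3.07 (SE 0.80, adjusted p = 0.00722). Limma called 5 of 6 states (83.3%) in each single contrast and 6 of 6 (100%) for both proteins, counting rises and falls. Called higher were 4 of 6 (66.7%) for FL-NfL, 3 of 6 (50%) for CC-NfL and 4 of 6 (66.7%) for both. Being called therefore does not set Activated_1 apart among the 6 states tested. The states called higher passed the filter of 10 cells only through their NfL libraries. In exact two-sided permutation tests the macrophage share gave p = 0.0571 for FL-NfL, 0.0286 for CC-NfL and 0.00952 for both, or 0.114, 0.0686 and 0.0686 adjusted over the 12 comparisons. With exchange within batch the exact permutation p was 0.0556, 0.0556 and 0.0222, each 0.111 after adjustment. The smallest possible values there were 0.0556 for each protein and 0.0111 for both.

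The FL-NfL call among macrophages was the less stable. It ended without vehicle library 1 (adjusted p = 0.0691), FL-NfL library 1 (0.0606), FL-NfL library 2 (0.0502) or FL-NfL library 3 (0.0981), and with the centred log ratio (0.0542). The CC-NfL call ended without CC-NfL library 3 (adjusted p = 0.0861), where the CC-NfL mean was 14.1% and not 21.6%. Both also ended in b1 alone, at 0.190 and 0.186, where vehicle, FL-NfL and CC-NfL averaged 5.77%, 14.0% and 14.1%. In b2 the values were 2.30%, 24.8% and 36.8%, and the FL-NfL call ended there too (adjusted p = 0.0668), with 1 library of each protein. Without vehicle library 2 the vehicle mean fell to 1.53% and the log2 odds ratios rose to 4.07 and 4.36.

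No difference between the proteins was detected. As a share of macrophages FL-NfL averaged 17.6% ± 6.54 and CC-NfL 21.6% ± 13.3 (SD, n = 3 each). The log2 odds ratio of FL-NfL to CC-NfL was -0.29 (SE 1.00, 95% interval -2.59 to 2.01, adjusted p = 0.782). As a share of annotated cells it was 0.76 (SE 1.07, 95% interval -1.66 to 3.18, adjusted p = 0.520). Both intervals are wide enough to hold a several-fold difference in either direction. Their width also depends on the vehicle libraries, since all groups share one estimate of the spread in limma. Without vehicle library 2 the estimates stayed at -0.29 and 0.76, with SE 0.46 and 0.61. Without vehicle library 1, 3 or 4 the SE was 0.89 to 1.07 among macrophages and 1.03 to 1.12 among annotated cells. Limma called 0 of 6 states (0%) between the proteins on either scale, and 0 at an unadjusted p of 0.05. A quasi-binomial model called 1 state among macrophages, Activated_3, and 0 among annotated cells, with 2 at an unadjusted p of 0.05. Its adjusted p-values for Activated_1 were 0.396 and 0.959. Among activated macrophages alone, the same model gave Activated_1 a log2 odds ratio of FL-NfL to CC-NfL of -0.59 (SE 0.22, adjusted p = 0.0510 over 3 states). Limma gave -0.26 there (SE 0.96, adjusted p = 0.792), with an SE that was the same for all 3 activated states. The FL-NfL and CC-NfL percentages of Activated_1 overlapped on both scales. On the annotated-cell scale 1 of 6 states (16.7%), Activated_3, did not overlap. The exact permutation p was 0.700 and 0.800, where 3 against 3 libraries cannot go below 0.1. The estimate among macrophages turned to 0.25 without CC-NfL library 3.

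**Figure D2:**
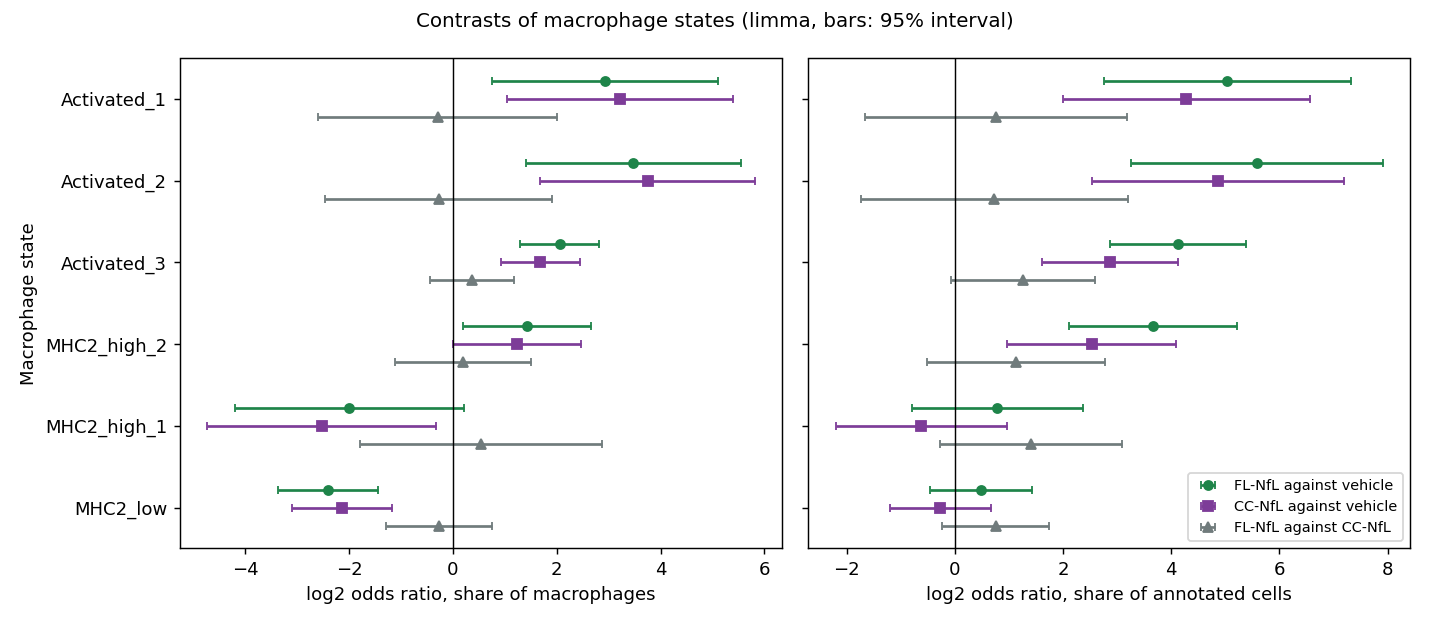
Log2 odds ratios with 95% intervals from limma for the 6 macrophage states tested, as a share of macrophages (left) and of annotated cells (right). Activated_1 lies above 0 against vehicle for both proteins in both panels, and its FL-NfL against CC-NfL interval crosses 0.

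The neighbouring states of the annotation give the setting for these values. Activated_2 rose to log2 odds ratios of 5.59 and 4.86 as a share of annotated cells after FL-NfL and CC-NfL (adjusted p = 0.000933 and 0.00323 in limma). Activated_3 rose by 4.13 and 2.87 (adjusted p = 0.000239 and 0.00323 in limma). The fourth state that rose on this scale was MHC2_high_2, at 3.67 and 2.53, whose name refers to MHC class II, the molecules that present antigen to helper T cells. MHC2_high_1 (0.79 and -0.62) and MHC2_low (0.48 and -0.27) did not pass on this scale. The SE of these contrasts was 1.01 for Activated_1, 1.03 for Activated_2 and 0.56 for Activated_3. As a share of macrophages, MHC2_low averaged 37.5% in vehicle, 11.6% in FL-NfL and 14.9% in CC-NfL libraries. Its log2 odds ratios were -2.40 and -2.14 (adjusted p = 0.00122 and 0.00266 in limma). MHC2_high_1 averaged 36.6%, 15.5% and 10.2%, with -1.99 and -2.53 (adjusted p = 0.0706 and 0.0350 in limma). The other states tested lay above 0 on that scale. Granulocytes and Proliferating, with 56 and 35 cells in all, had too few cells for the test.

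Activated_1 supplied a sizeable part of the extra macrophages. The mean macrophage share of annotated cells was 5.92 percentage points higher after FL-NfL than after vehicle, and Activated_1 made up 1.24 of these points, or 21.0%. After CC-NfL the difference was 2.61 points, of which Activated_1 made up 0.965, or 37.1%. For Activated_2 the parts were 20.8% and 29.3%, and for Activated_3 they were 29.2% and 25.3%. Without CC-NfL library 3 the CC-NfL difference was 1.72 points, of which Activated_1 made up 0.413, or 24.0%, and Activated_3 32.3%. These parts are means over libraries with no test. Macrophages of no activated state made up 1.26% ± 0.220 of annotated cells in vehicle (SD, n = 4), 2.93% ± 0.771 in FL-NfL and 1.47% ± 0.750 in CC-NfL libraries (SD, n = 3 each). Measured against these macrophages alone, the log2 odds ratio of Activated_1 to vehicle was 3.90 for FL-NfL (adjusted p = 0.00268) and 4.21 for CC-NfL (adjusted p = 0.00188), in limma. Activated_1 was also set against microglia, the resident macrophages of the brain tissue. For every 1000 of them there were 1.62 ± 2.20 Activated_1 macrophages in vehicle (SD, n = 4), 44.4 ± 26.2 in FL-NfL and 33.1 ± 34.9 in CC-NfL libraries (SD, n = 3 each). Without vehicle library 2 the vehicle mean of this ratio was 0.537, and without CC-NfL library 3 the CC-NfL mean was 13.2.

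**Figure D3:**
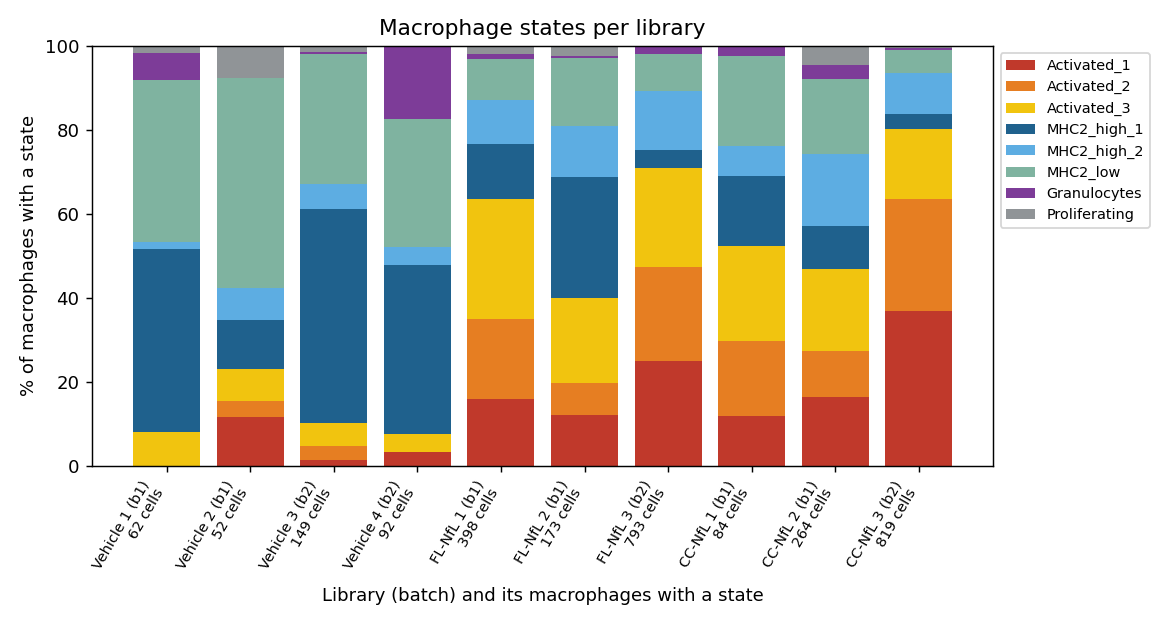
Percentage of macrophages in each of 8 states, stacked per library, with the batch and the number of macrophages with a state under each bar. Activated_1 (bottom) ranges from 0% to 11.5% in vehicle and from 11.9% to 36.8% in NfL libraries, and is widest in FL-NfL and CC-NfL libraries 3.

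Within the 3 activated states combined, the part that was Activated_1 showed no tested change. It was 0%, 50%, 13.3% and 42.9% in vehicle libraries 1 to 4, on only 5, 12, 15 and 7 activated cells. It was 24.9%, 30.4% and 35.1% in FL-NfL libraries and 22.7%, 34.7% and 45.9% in CC-NfL libraries, on 44 to 656 activated cells. The vehicle values span all NfL values. Against vehicle, limma gave a log2 odds ratio of 0.45 for FL-NfL (SE 0.90, 95% interval -1.45 to 2.34, adjusted p = 0.627). For CC-NfL limma gave 0.71 (SE 0.90, 95% interval -1.19 to 2.60, adjusted p = 0.443). This SE was the same for all 3 activated states, so it is not a spread particular to Activated_1. Limma called 0 of 3 states (0%) in each contrast with vehicle, with 1 unadjusted p under 0.05, that of Activated_3 for both proteins together. The quasi-binomial model also called 0 of 3 in each, with adjusted p-values of 0.803 and 0.344 for Activated_1. Without vehicle library 2, Activated_1 passed in limma for CC-NfL (1.53, adjusted p = 0.0487) and for both proteins (1.40, adjusted p = 0.0409). Without vehicle library 1, which held no Activated_1 cell among 5, the estimates were -0.27 for FL-NfL and -0.0028 for CC-NfL.

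Batch moved with the size of the state in NfL libraries. Among the 4 NfL libraries of b1, Activated_1 made up 11.9% to 16.3% of macrophages, and in the 2 of b2 it made up 24.8% and 36.8%. In both b2 libraries it was the largest of the 3 activated states, with 1.05 and 2.21 cells for each Activated_3 cell. In all 4 b1 libraries Activated_3 was the largest, with 0.526 to 0.827 Activated_1 cells for each. The b2 against b1 difference had an exact two-sided permutation p of 0.0667 as a share of macrophages and of annotated cells, the smallest that 2 against 4 libraries allow, and 0.133 as a share of activated macrophages. An interaction of NfL and batch in limma gave a difference in log2 odds ratio of 1.79 for macrophages (SE 1.58, adjusted p = 0.600) and 2.25 for annotated cells (SE 1.63, adjusted p = 0.340). This split and its tests were chosen after the values were seen. The labels give only the batch names, and the part of batch in these values beyond those tests was not tested.

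On the authors' t-SNE map of macrophages, Activated_1 lay in the middle, between the other activated states and the MHC class II states. Its median position was 1.98 and -0.37 on the 2 axes, in arbitrary units. Along the second axis Activated_2 followed at -11.6 and Activated_3 at -22.5, while MHC2_high_2 lay at 9.88, MHC2_high_1 at 20.1 and MHC2_low at 22.7. Activated_2 had the nearest median, at a distance of 11.4, followed by Granulocytes at 13.6. The map was made from the same cells that were clustered, so the separation of states is a description and carries no test. Distances on a t-SNE map do not measure similarity evenly, and a middle position shows no order in time.

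Neighbourhoods on this map were mostly of the state's own kind. Of the 30 nearest macrophages of an Activated_1 cell, 87.2% on average were Activated_1, 9.47% Activated_2, 1.97% MHC2_high_2, 0.454% MHC2_low, 0.444% Activated_3, 0.439% Granulocytes and 0.0310% MHC2_high_1. No neighbour was of the state Proliferating. At least 1 Activated_2 neighbour was found for 214 cells (33.1%), and at least 1 MHC2_high_2 neighbour for 93 (14.4%). Cells with only their own state around them made up 55.6%. In the map of all annotated cells, 81.6% of the 30 nearest cells were Activated_1 and 13.4% Activated_2. All neighbours there were macrophages for all 646 cells.

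**Figure D4:**
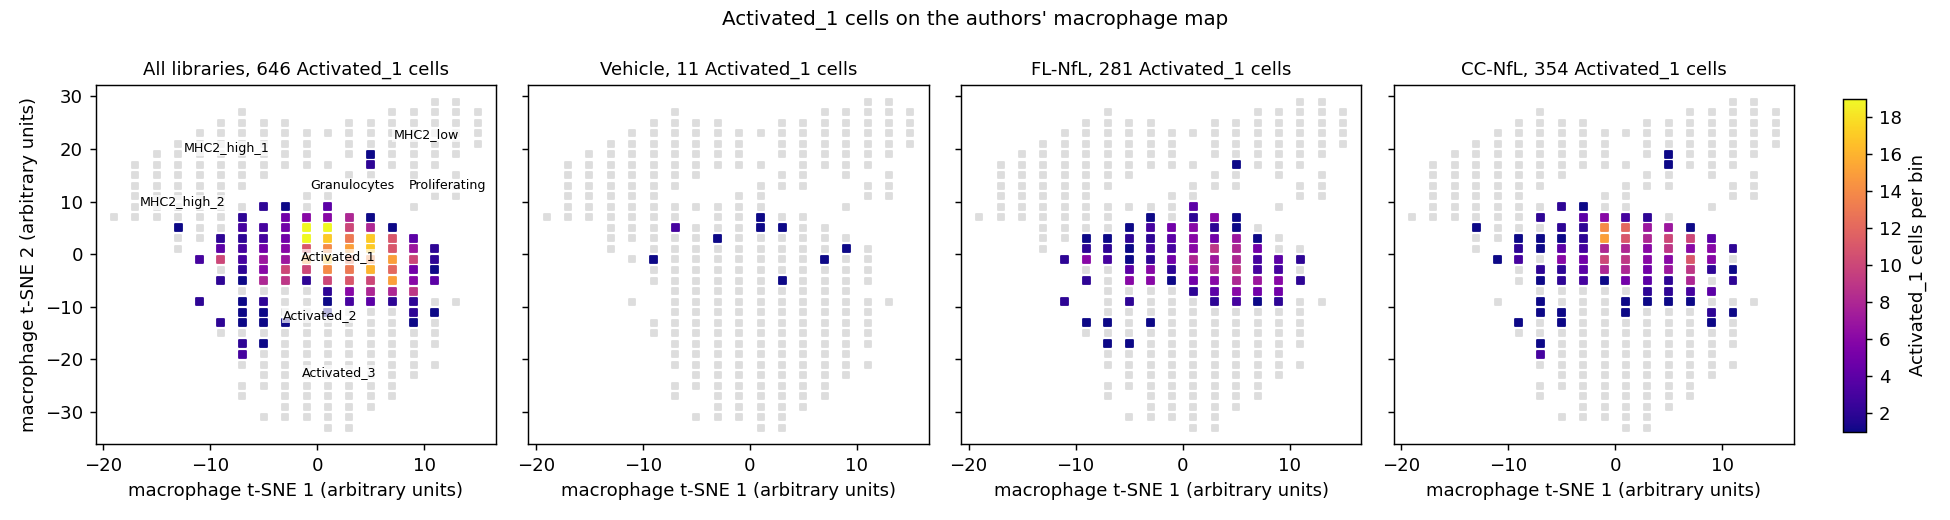
Activated_1 cells on the authors' macrophage t-SNE map (axes in arbitrary units), counted in square bins 2 units wide, for all libraries and each group, with the bins of all macrophages in grey and state names at their medians. The 281 FL-NfL and 354 CC-NfL cells cover the same middle region, and the 11 vehicle cells have a median of 4.30 on the second axis.

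Activated_1 cells of the NfL groups shared this region. The share of own-state neighbours on the macrophage map was 87.1% ± 2.42 in FL-NfL and 86.3% ± 4.34 in CC-NfL libraries (SD, n = 3 each), a difference of 0.805 percentage points with an exact permutation p of 0.900. Among 6 position measures the lowest exact permutation p was 0.1, for the first axis, the smallest possible and 0.600 after adjustment. Among the Activated_1 neighbours that came from other NfL libraries, the FL-NfL share was set against the FL-NfL share of all such cells. Around cells of FL-NfL libraries 1 to 3 it was 41.4%, 45.6% and 21.6%, where 38.1%, 42.3% and 19.2% were available. Around cells of CC-NfL libraries 1 to 3 it was 41.4%, 51.2% and 84.1%, where 45.0%, 47.5% and 84.1% were available. The pairs of values differed by less than 4 percentage points in each of the 6 libraries. The vehicle cells are too few for a test. Activated_2 made up 0.556%, 6.67% and 0% of the neighbours in vehicle libraries 2, 3 and 4, from 6, 2 and 3 cells, against 5.56% to 13.9% in NfL libraries. The MHC2 states made up 22.8%, 3.33% and 1.11% of them, against 0.745% to 6.83%. On the macrophage map vehicle library 3 lay inside the NfL range for both, and the high MHC2 value was that of vehicle library 2 alone. In the map of all annotated cells none of these vehicle libraries lay inside the NfL range. The MHC2 states made up 51.1%, 16.7% and 32.2% of neighbours there in vehicle libraries 2, 3 and 4, against 1% to 11.4%. Activated_2 made up 0%, 5% and 0%, against 10.8% to 30.2%.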

How the data were processed

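The submitters' processing notes name Cell Ranger 6.0.1 and GRCm38. Not given in the sources used here: cell filters, treatment of doublets, clustering, naming rules, t-SNE settings. In the deposited file stand the authors' class, cluster and state per cell and t-SNE positions, a score without units. Of its barcodes, 36.3% carry no annotation and were left out. The annotated part was smaller in every b1 library than in every b2 library, and the cause was not tested. It was lowest in FL-NfL library 1 of b1 (4220 of 14726 barcodes) and highest in FL-NfL library 3 of b2 (11329 of 13692). In an alternative run with all barcodes as denominator, the log2 odds ratios of Activated_1 to vehicle were 4.85 for FL-NfL and 4.31 for CC-NfL.

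The library, 1 per mouse, was the replicate. Cells per state were counted, and log2((cells + 0.5) / (other cells + 0.5)) was fitted in limma 3.58.1 (R 4.3.3) over all 10 libraries with group and batch, with Benjamini-Hochberg adjustment over the 6 states that averaged 10 cells or more in a library (3 among activated states). Shares of one total are not independent, so p-values may be too small. The function was tested on simulated data in which states were independent and batches did not differ, so that test does not cover this limit. Exact permutation tests counted splits with an absolute mean difference at least as large. Intervals for shares are exact (Clopper-Pearson, 95%). Up to 3 cells were allowed for where 0 were counted. Positions were described by the 30 nearest cells, and the map test used libraries with at least 10 Activated_1 cells. By a rule written with the design, every other fine macrophage state was to be given by level and contrasts. All are named here, but not each with every level and contrast. Libraries of the same replicate number deviated together (correlation over 0.1) in 3 of 3 pairs of FL-NfL and CC-NfL (0.20 to 0.50). They did so in 1 of 3 pairs of vehicle with FL-NfL and 2 of 3 with CC-NfL. That is 6 of 9 pairs of the same number. Among pairs of different numbers it was 2 of 8 within a batch and 5 of 16 across batches. The main fits and the permutation tests took no groups as paired, also for FL-NfL against CC-NfL. Only the run with the replicate number as a block used this pairing. Doublets were not called here, since the file holds no gene values. The state and its tests were chosen with earlier results of these data known.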

Additional observations from a re-analysis of the deposited data

How the results depend on the processing

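The log2 odds ratios of Activated_1 to vehicle stayed above 0 as a share of macrophages and of annotated cells in every alternative run, and as a share of annotated cells every call held when any 1 library was left out. Leaving out 1 library gave, for FL-NfL, CC-NfL and both proteins, 2.23 to 4.07, 2.52 to 4.36 and 2.38 to 4.21 as a share of macrophages, and 4.45 to 6.20, 3.35 to 5.44 and 4.07 to 5.82 as a share of annotated cells. As a share of activated macrophages it gave -0.27 to 1.27, -0.0028 to 1.53 and -0.13 to 1.40. FL-NfL against CC-NfL ran from -0.63 to 0.25 among macrophages, from 0.018 to 1.58 among annotated cells and from -0.57 to -0.036 among activated macrophages.

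Calls among macrophages ended in batch b1 only (2.29, 2.31 and 2.30 for FL-NfL, CC-NfL and both, adjusted p = 0.190, 0.186 and 0.133), without the 3 libraries numbered 1 (2.23, 2.88 and 2.56, adjusted p = 0.142, 0.0796 and 0.0620), and for FL-NfL in batch b2 only (3.68). With the centred log ratio the FL-NfL call ended on both scales, which this measure makes equal (1.75). As a share of annotated cells the CC-NfL call ended in b1 only (3.06). Fewer libraries were fitted in these alternatives, except for the centred log ratio, and why the calls ended was not tested in any of them. The sign of FL-NfL against CC-NfL among annotated cells turned with the centred log ratio (-0.25), without the libraries numbered 1 (-0.19) and in b2 only (-0.30), and that of FL-NfL to vehicle among activated macrophages without the libraries numbered 1 (-0.14), in each case without a call.

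With the replicate number of the labels as a block in place of batch, the log2 odds ratios among macrophages were 2.95, 3.24 and 3.10 (adjusted p = 0.0328, 0.0285 and 0.0182), and no call for Activated_1 changed. The block left the FL-NfL against CC-NfL values at -0.29, 0.76 and -0.26 among macrophages, annotated cells and activated macrophages (adjusted p = 0.787, 0.509 and 0.771). The design fixes these estimates, since both proteins have the same replicate numbers in the same batches, so the block could not move them. The fits without shared barcodes and in b2 only, and the values without a library for microglia and for parts of the macrophage difference, were added after the data were seen, and without shared barcodes no call changed. With 15 and 60 nearest cells the own-state share on the macrophage map, as a mean over the 6 NfL libraries, was 88.1% and 85.1%, against 86.7% with 30. The 11 vehicle cells limit the precision of every contrast with vehicle. In limma the vehicle libraries also enter the precision of FL-NfL against CC-NfL, through the shared estimate of the spread.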
